A study of Drosophila melanogaster with 46 samples.

Results

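The transcripts of the mitochondrial genome were followed in heads of *Drosophila melanogaster* across 4 groups and 6 hours of the day. Members were all genes of the count table with a symbol that starts with mt:, which gave 37 of 17490 genes: 13 protein genes, 2 rRNA genes and 22 tRNA genes. The study asked how chronic sleep loss and age alter daily gene expression. *WT*, the isogenic strain Canton-S w1118 (iso1CJ), was sampled at 27 days of age (10 libraries) and, as *WT-old*, at 49 days (12 libraries). The sleep mutants *inc1*, mutated in *insomniac* (12 libraries), and *wakeD2*, mutated in *wide awake* (12 libraries), were sampled at 27 days, and both had been backcrossed to the *WT* strain. The mitochondrial lineage of each strain is not given in the sources used here. All flies lived under light/dark cycles, with lights on at Zeitgeber time (ZT) 0 and off at ZT12, and received no other treatment. Each library held the pooled heads of many flies at 1 timepoint, every 4 h from ZT0 to ZT44. The study describes the pools as of mixed sexes. ZT28 and ZT40 of *WT* were not analysed here. No timepoint was repeated within a sampling day, so timepoints served as the replicates. The p-values measure the spread between pools that is left after the hour or cosine and sine terms of each model.

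The mitochondrial genome is a small circular DNA that encodes core subunits of the respiratory complexes, the rRNAs of the mitochondrial ribosome and a set of tRNAs. Both strands are transcribed into long precursors by the mitochondrial RNA polymerase PolrMT, the precursors are cut largely at the tRNAs that lie between the other genes, and the mRNAs and the large rRNA receive short poly(A) tails. All other mitochondrial proteins come from nuclear genes, so each respiratory complex with members here is built from the products of both genomes. The libraries were made from RNA selected by its poly(A) tail, and a lower count can stand for less RNA, fewer mitochondria-rich cells or a smaller captured share of the same RNA, which cannot be told apart in bulk heads.

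Library totals ran from 12630462 to 29802881 counts, with a median of 22856683, and 3 counts in a library corresponded to between 0.101 and 0.238 CPM (counts scaled to a fixed library size). Markers of photoreceptors were at a median of 1352 to 2812 CPM, of neurons at 474 to 1034 CPM and of glia at 172 to 307 CPM across the libraries, so the defining markers of head tissue were present. Markers of the male accessory gland, a body tissue, had a median above 1 CPM in 3 of 10 *WT*, 4 of 12 *inc1*, 11 of 12 *wakeD2* and 1 of 12 *WT-old* libraries. In *WT-old*, the markers of head fat, which include the female yolk proteins, had a median of 6892 to 10425 CPM at ZT0 to ZT8, of 991 to 1171 CPM at ZT12 and of 35.1 to 52.2 CPM at ZT16 and ZT20, while the male markers had a median of 53.0 to 66.7, 77.4 to 80.5 and 94.2 to 113 CPM. By these markers the *WT-old* pools did not hold the same mix of sexes at all hours, with the fewest female heads at ZT16 and ZT20. The part of this in the results of *WT-old* was not tested. Below, CPM of a member refers to the library size after TMM scaling.

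The 37 members together took between 2.10% and 5.90% of all counts of a library, with a median of 3.50%. The large rRNA, mt:lrRNA, the core RNA of the large mitochondrial ribosomal subunit, held 49.0% of the mitochondrial counts over all libraries. It was followed by mt:CoI with 18.4%, mt:CoIII with 10.7%, mt:Cyt-b with 7.78%, mt:ATPase6 with 6.28% and mt:CoII with 4.00%. These 6 genes thus carried nearly all mitochondrial counts, and the 7 subunits of complex I, the NADH dehydrogenase that feeds electrons into the chain, carried few.

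Levels between genes were compared per kilobase of annotated gene. By its median over the 46 libraries, mt:lrRNA stood at 12578 CPM per kb, mt:CoIII at 5331, mt:CoI at 4353, mt:ATPase6 at 3429, mt:Cyt-b at 2353 and mt:CoII at 2144 CPM per kb. Below them came mt:ND1 at 870 CPM per kb, mt:ND4 at 190.4, mt:ND5 at 106 and mt:ND3 at 60.3 CPM per kb. The 3 lowest of the genes tested were mt:ND2 at 11.1, the small rRNA mt:srRNA at 9.14 and mt:ND6 at 3.57 CPM per kb. Genes that lie side by side on 1 strand differed widely: mt:lrRNA (positions 12735 to 14058 of the mitochondrial genome, minus strand, assembly BDGP6) and mt:srRNA (14131 to 14916, minus strand), with only the gene of tRNA-Val between them, stood 1376-fold apart per kb. Likewise mt:ATPase6 (4062 to 4736, plus strand) stood 4710-fold above mt:ATPase8 (3907 to 4068, plus strand), with which it shares 7 bases of annotation, and mt:ND4 (8207 to 9545, minus strand) 462-fold above mt:ND4L (9545 to 9835, minus strand), with which it shares 1 base. How reads in such overlaps were assigned, and whether strand was used, is not given in the sources used here, so the low values of mt:ATPase8 and mt:ND4L are uncertain. The protein genes on the plus strand numbered 9 and those on the minus strand 4, and both strands held abundant and scarce members.

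**Figure D1:**
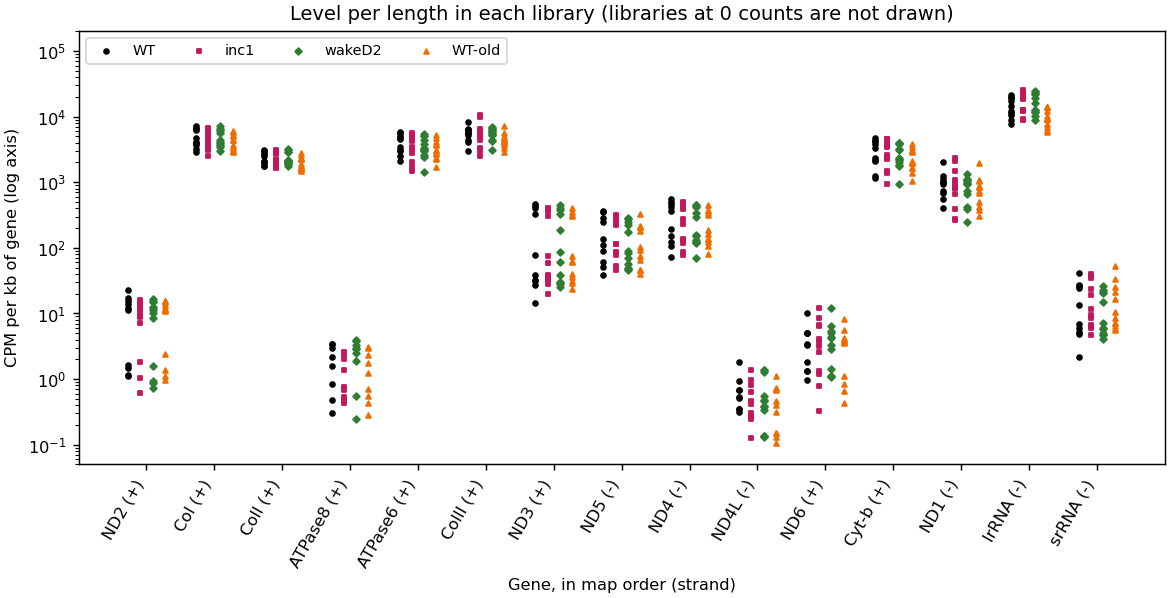
Level of each protein and rRNA gene per kilobase (CPM per kb, log axis) in map order, with its strand; each point is 1 library, coloured by group. mt:lrRNA is highest at a median of 12578 CPM per kb, and mt:ATPase8 and mt:ND4L lie lowest in all 4 groups.

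Testing was limited to genes that reached 1 CPM in at least 18 libraries, which left 13 of the 37 members: 11 protein genes and both rRNAs. The other 24 are mt:ATPase8, a small subunit of the ATP synthase, mt:ND4L, a small membrane subunit of complex I, and all 22 tRNA genes. None of them entered a test with this filter. mt:ATPase8 had at most 13 counts and mt:ND4L at most 11 counts in any library. Of the tRNA genes, 9 had 0 counts in every library, which allows up to 3 counts each, and the other 13 reached 14 counts at most, in mt:tRNA:Tyr-GTA. The scarce members followed the hour as well: the tRNAs summed to a median of 20 counts per library at ZT0 and ZT12 (range 8 to 37), 12 at ZT4 and ZT16 (6 to 24) and 4 at ZT8 and ZT20 (1 to 10). mt:ATPase8 had counts in all 30 libraries of the first 2 pairs of hours and was at 0 in 11 of the 16 libraries at ZT8 and ZT20.

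The hour of the day was the main division among the tested members, and it is described by pairs of hours 12 h apart: ZT0 with ZT12, ZT4 with ZT16 and ZT8 with ZT20. The series lists its samples in runs that match these pairs, and a batch that followed them cannot be told apart from the hour. The mitochondrial share of all counts was between 3.65% and 5.90% in the 16 libraries at ZT0 and ZT12 (median 5.21%), between 2.10% and 4.34% in the 14 at ZT4 and ZT16 (median 2.85%) and between 2.35% and 5.26% in the 16 at ZT8 and ZT20 (median 3.24%). The ranges overlap between pairs of hours, and *inc1* departed from the pairs, with 5.17% at ZT8 against 3.23% at ZT20 and 3.14% at ZT32 against 5.26% at ZT44. Library totals ran from 20468498 to 23533840 counts at the first pair of hours, from 20037165 to 28565821 at the second and from 12630462 to 29802881 at the third.

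All 13 tested members differed between the 6 hours in edgeR's quasi-likelihood test of the 5 hour coefficients, with adjusted p between 7.15e-19 and 2.01e-07, against 73.8% of all 9969 genes tested. This test and the 12 h tests below were added after the data were seen. The size separated the members more than the call: fitted hours differed by at least 1 on the log2 scale in 11 of 13 members, against 9.85% of all genes, and the median range over hours was 1.95 for members and 0.37 for all genes. The exceptions were mt:CoI and mt:CoII, with ranges of 0.89 and 0.73. The hour pair alone held between 56.0% and 89.7% of the variance of log2 CPM within groups in the 13 members (median 74.3%), and a median of 23.4% over all genes. Fitted levels were higher at ZT0 and ZT12 than at the other 4 hours in 13 of 13 members (median 0.80 on the log2 scale, against 0.02 over all genes), by at least 1 in 5 members and in 0.451% of all genes.

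**Figure D2:**
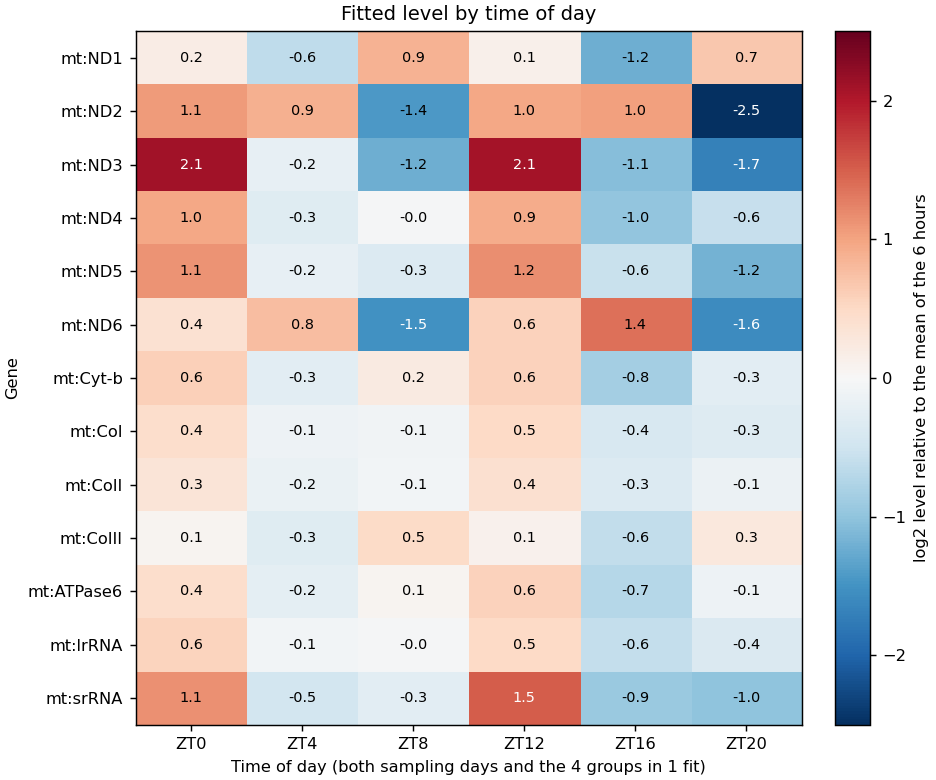
Fitted log2 level of the 13 tested members at each hour of the day (columns), relative to the mean of the 6 hours, from 1 fit to all 46 libraries. mt:ND3 is highest at ZT0 and ZT12, mt:ND2 and mt:ND6 are lowest at ZT8 and ZT20, and mt:ND1 is lowest at ZT4 and ZT16.

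Among complex I subunits, mt:ND3 (5608 to 5961, plus strand), a membrane subunit near the ubiquinone site, had the widest swing. In *WT* it was at 152 CPM at ZT0, 165 at ZT12, 145 at ZT24 and 116 at ZT36, and between 5.05 and 27.3 CPM in the other 6 libraries. In the 16 libraries at ZT0 and ZT12 of all groups it ran from 107 to 165 CPM (median 133), against 6.93 to 66.0 (median 21.4) at ZT4 and ZT16 and 5.05 to 20.8 (median 11.1) at ZT8 and ZT20. The lowest library at ZT0 and ZT12 lay above the highest of all others, a wakeD2 library at ZT4, so these hours did not overlap with the rest in any group. The fitted level at ZT0 and ZT12 was 3.13 higher on the log2 scale than at the other hours, an 8.77-fold difference, and within groups this value ran from 3.03 in *WT-old* to 3.51 in *WT*.

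mt:ND5 (6409 to 8125, minus strand) and mt:ND4 (8207 to 9545, minus strand), both subunits of the proton-pumping membrane arm, were likewise highest at ZT0 and ZT12. mt:ND5 ran from 353 to 621 CPM (median 476) at ZT0 and ZT12, from 112 to 304 (median 150.0) at ZT4 and ZT16 and from 66.5 to 380 (median 85.7) at ZT8 and ZT20. Within each group its libraries at ZT0 and ZT12 all lay above its others, and the fitted difference was 1.72. For mt:ND4 the 3 ranges were 429 to 744 CPM (median 600), 92.3 to 390 (median 170) and 96.3 to 554 (median 183), with a fitted difference of 1.42. Here the hours overlapped in *WT* and *WT-old*, through *WT* at ZT32 (554 CPM) and *WT-old* at ZT8 (498 CPM).

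mt:ND2 (240 to 1263, plus strand), another membrane-arm subunit, and mt:ND6 (9971 to 10495, plus strand), a membrane subunit beside the junction of the arms, had a different course and were lowest at ZT8 and ZT20. In *WT*, mt:ND2 was at 1.15 CPM at ZT8, 1.49 at ZT20, 1.20 at ZT32 and 1.66 at ZT44, and between 11.5 and 23.5 CPM in the other 6 libraries. Over all groups it ran from 8.99 to 23.5 CPM (median 13.2) at ZT0 and ZT12, from 7.41 to 17.8 (median 12.1) at ZT4 and ZT16 and from 0.62 to 12.7 (median 1.18) at ZT8 and ZT20. A lone library broke the course: *inc1* at ZT8, the shallowest of the series, was at 12.7 CPM, and the other 15 libraries at these hours were at 2.45 CPM or below. In that library mt:ND6 was at its own minimum of 0.17 CPM, which rests on 2 counts.

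The range of mt:ND6 was 1.69 to 3.44 CPM (median 2.16) at ZT0 and ZT12, 1.38 to 6.32 (median 3.16) at ZT4 and ZT16 and 0.17 to 0.97 (median 0.58) at ZT8 and ZT20. In each of the 4 groups its libraries at ZT8 and ZT20 lay below all others, and the fitted level at ZT8 and ZT20 differed from that at ZT4 and ZT16 by -2.62 on the log2 scale, against -2.92 for mt:ND2. Only 33 of the 9969 genes tested had a difference of -1 or below, both of these members among them. mt:ND6 was the only tested member with its highest fitted level at ZT16.

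mt:ND1 (11721 to 12659, minus strand), the subunit at the base of the membrane arm, ran the opposite way, with its lowest levels at ZT4 and ZT16. It was at 654 to 1071 CPM (median 833) at ZT0 and ZT12, 231 to 633 (median 373) at ZT4 and ZT16 and 654 to 2184 (median 1047) at ZT8 and ZT20. The fitted difference of ZT8 and ZT20 over ZT4 and ZT16 was 1.69, and it ran from 1.28 in *WT* to 2.16 in *inc1*. Members of a single complex therefore had their lowest hours at different times, and strand did not divide them: mt:ND1, mt:ND4 and mt:ND5 share the minus strand and followed different courses.

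The subunits of the other complexes swung less. mt:Cyt-b (10499 to 11635, plus strand), the catalytic cytochrome of complex III, was at 3321 to 5318 CPM (median 4310) at ZT0 and ZT12, 1084 to 3579 (median 1944) at ZT4 and ZT16 and 1306 to 5227 (median 2540) at ZT8 and ZT20, so the ranges overlapped. mt:CoI (1474 to 3009, plus strand), which holds the oxygen-reducing centre of complex IV, had medians of 9565, 5517 and 5758 CPM at these pairs of hours. mt:CoII (3083 to 3767, plus strand), which receives electrons from cytochrome c, had medians of 1969, 1251 and 1383 CPM. Both stood highest at ZT0 and ZT12, by 0.70 and 0.54 on the log2 scale, and in *WT*, *wakeD2* and *WT-old* these hours lay above all others.

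mt:CoIII (4736 to 5524, plus strand), the remaining complex IV subunit of the mitochondrial genome, behaved like mt:ND1 rather than like mt:CoI and mt:CoII. Its median was 4289 CPM at ZT0 and ZT12 (3239 to 5035), 2770 at ZT4 and ZT16 (1967 to 4368) and 5034 at ZT8 and ZT20 (3454 to 8386), and its fitted level at ZT0 and ZT12 was only 0.12 above the other hours. mt:ATPase6, the subunit that forms the proton path of the ATP synthase, abuts it upstream and was highest at ZT0 and ZT12, with medians of 3391, 1592 and 2134 CPM. mt:ND3, which follows mt:CoIII after a tRNA gene on the same strand, was also highest at ZT0 and ZT12, so mt:CoIII, with its highest fitted level at ZT8, differed from both of these neighbours.

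Of the rRNAs, mt:lrRNA was at 15990 to 34060 CPM (median 27600) at ZT0 and ZT12, 7760 to 24799 (median 12542) at ZT4 and ZT16 and 8180 to 27414 (median 15223) at ZT8 and ZT20. mt:srRNA, the core RNA of the small ribosomal subunit, was at 16.0 to 41.0 CPM (median 20.6), 3.65 to 11.6 (median 4.85) and 1.68 to 15.0 (median 5.47). The fitted difference of ZT0 and ZT12 over the other hours was 0.80 for mt:lrRNA and 1.99 for mt:srRNA. Within every group the mt:srRNA libraries at ZT0 and ZT12 lay above all its others, which held for mt:lrRNA in *WT*, *wakeD2* and *WT-old* but not in *inc1*.

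**Figure D3:**
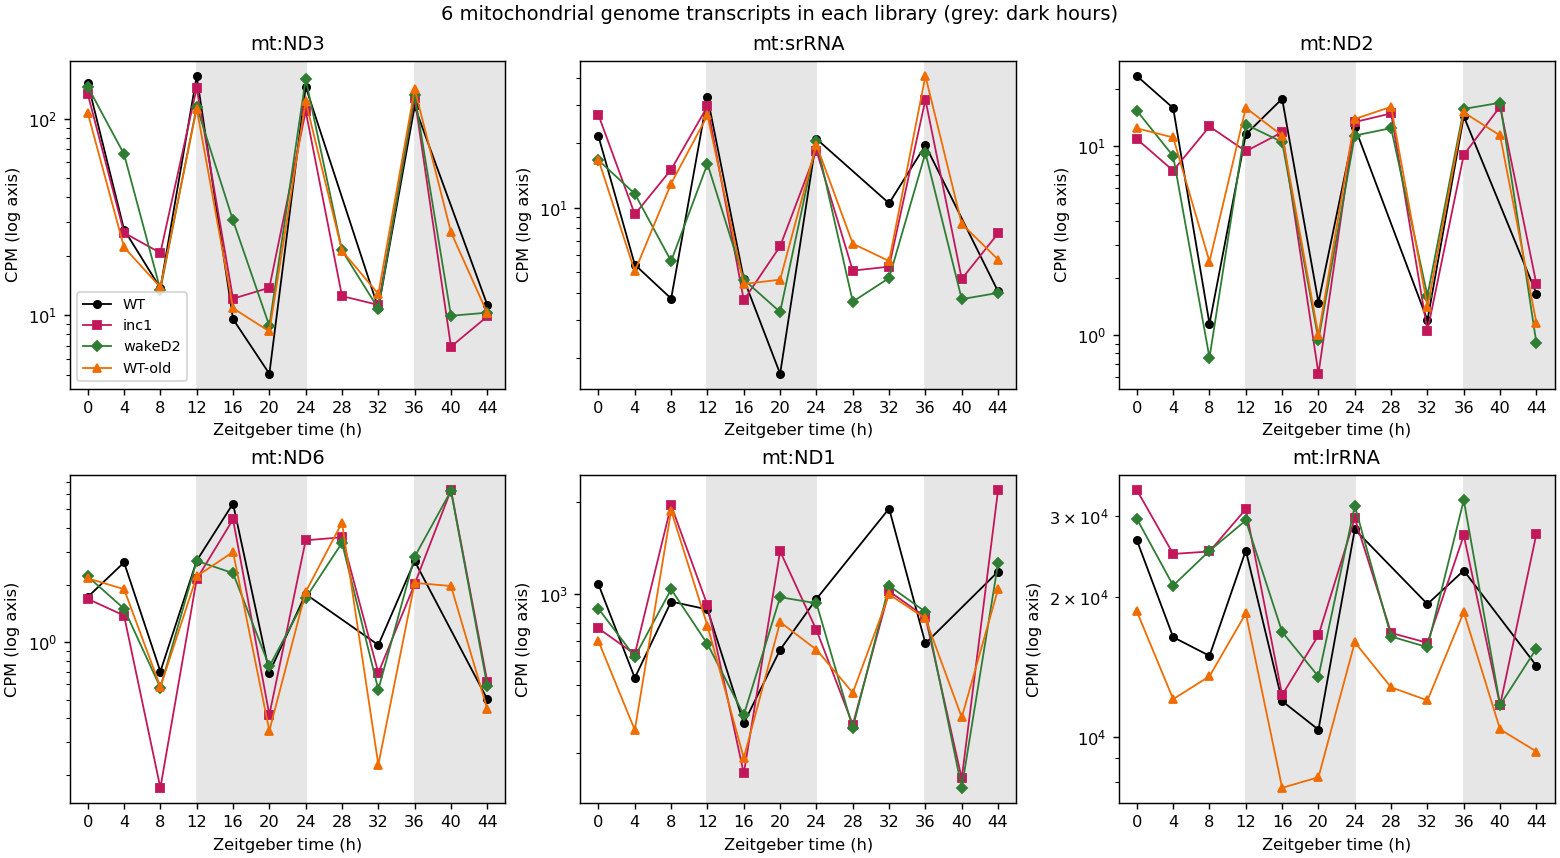
CPM (log axis) of 6 members over Zeitgeber time, with 1 point per library and 1 line per group; grey marks dark hours. mt:ND3 and mt:srRNA peak at ZT0, ZT12, ZT24 and ZT36, mt:ND2 and mt:ND6 dip at ZT8, ZT20, ZT32 and ZT44 except for mt:ND2 in *inc1* at ZT8, and *WT-old* lies lowest for mt:lrRNA.

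Other measures moved with the hours too. The neuron markers had a median of 661 to 1034 CPM at ZT8 and ZT20, against 474 to 744 at ZT0 and ZT12 and 474 to 713 at ZT4 and ZT16, and in *wakeD2* the accessory gland markers were at 66.1 CPM (median of 4 libraries) at ZT0 and ZT12, 16.2 at ZT4 and ZT16 and 6.57 at ZT8 and ZT20. In *WT-old* the accessory gland markers did not exceed 1.94 CPM. The part of the neuron markers in the course of the members was not tested. Nor was that of body-tissue RNA in the 12 h component below. Among the 16 libraries at ZT8 and ZT20, mt:ND4 was at 373 CPM or more in 4: *WT* at ZT32, *inc1* at ZT8 and ZT44 and *WT-old* at ZT8. The last 3 of these are the shallowest libraries of the series, with 12630462, 17121985 and 16994798 counts, where no other library was below 20037165. Without these 3, all 13 members were still called by hour, and all 13 had a 12 h component in each group. Labels give no batch of collection, library preparation or sequencing. The series lists its samples in 3 unbroken runs that match the pairs of hours: ZT0 with ZT12, ZT4 with ZT16 and ZT8 with ZT20. What this order stands for is not given, and a batch that followed the hours cannot be told apart from the hour itself.

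A 12 h component, tested beside a 24 h component in each group, was called in 13 of 13 members in all 4 groups, with adjusted p up to 0.0133 in *WT*, 0.00409 in *inc1*, 0.0269 in *wakeD2* and 0.0291 in *WT-old* (edgeR). Over all genes it was called in 31.3% in *WT*, 42.9% in *inc1*, 39.1% in *wakeD2* and 32.8% in *WT-old*. In the test of the difference from *WT*, the 12 h component was called in 0 of 13 members for *inc1*, *wakeD2* and *WT-old*, where 0%, 0% and 0.0401% of all genes were called. At an unadjusted p under 0.05 the counts were 1, 0 and 0 members.

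A 24 h rhythm, the pattern that the study sought, was called in 0 of 13 members in each group, against 6.19% of all genes in *WT*, 5.04% in *inc1*, 5.95% in *wakeD2* and 19.3% in *WT-old* (edgeR). The sex markers of *WT-old* moved with the hour, and their part in its share was not tested. At an unadjusted p under 0.05 it was 0 of 13 in each group, and DESeq2 also called 0. These fits held no 12 h terms, so the spread between pairs of hours, wide in the members, counted as error. They could therefore miss a 24 h rhythm in the members, and the shares of all genes are not a like measure. With the 12 h terms in the model, the calls were 0 of 13 members again, against 12.6%, 11.6%, 11.6% and 34.6% of all genes. For the difference in 24 h rhythm from *WT*, 0 of 13 members were called for each group, also at an unadjusted p under 0.05 and by DESeq2, against 0.0301% of all genes for *inc1*, 0% for *wakeD2* and 1.72% for *WT-old*. These tests of the difference held no 12 h terms either. Light and dark hours of a pair were not tested against each other. Fitted levels were lower at ZT20 than at ZT8 in 13 of 13 members (median -0.34 on the log2 scale), against 5706 of 9969 genes. At ZT16 they were lower than at ZT4 in 11 of 13 (median -0.46), against 5302 of 9969 genes. The medians over all genes were -0.02 and -0.01. Members share their libraries, so these counts are not of independent cases. ZT12 and ZT0 differed by 0.38 at most, in mt:srRNA.

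**Figure D4:**
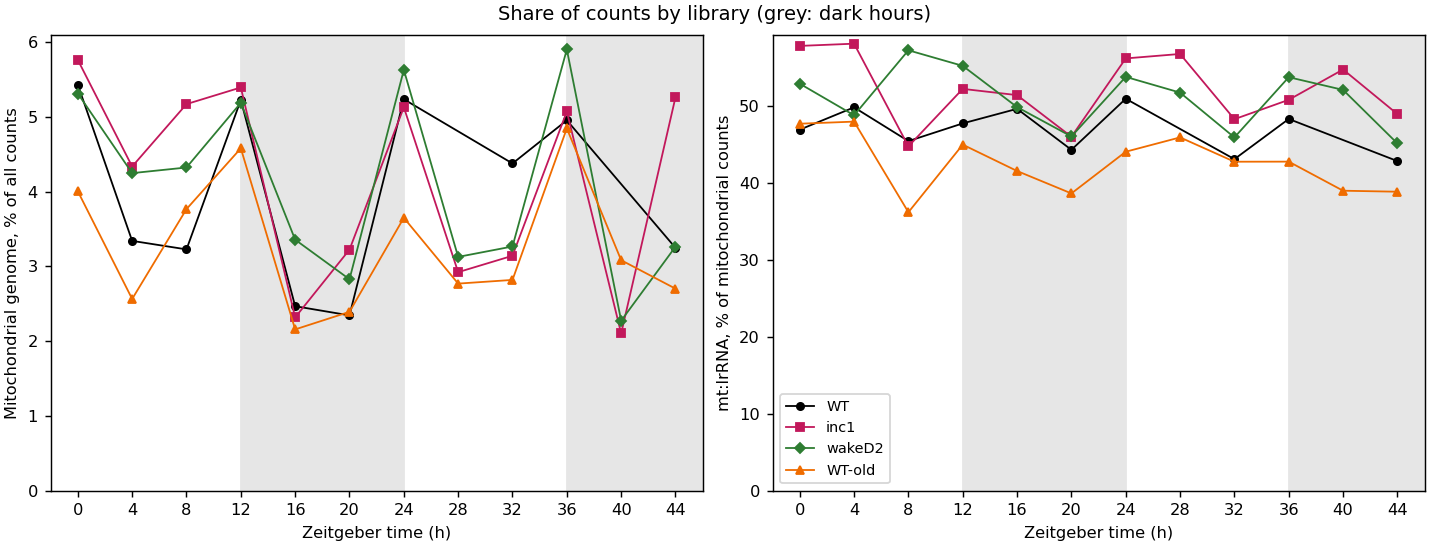
Mitochondrial counts as % of all counts (left) and mt:lrRNA counts as % of mitochondrial counts (right) by Zeitgeber time, with 1 point per library; grey marks dark hours. On the left, shares at ZT0, ZT12, ZT24 and ZT36 run from 3.65% to 5.90%, with *inc1* at ZT8 (5.17%) and ZT44 (5.26%) as high, and on the right *WT-old* (36.2% to 48.0%) lies lower than *inc1* (44.8% to 58.1%) at 12 of 12 timepoints.

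Levels averaged over time were compared between groups in a model with the hour. In *inc1*, mt:lrRNA was the only called member, 1 of 13 against 33.5% of all genes. Its lowest, median and highest values were 11697, 24951 and 34060 CPM in *inc1* and 10359, 17868 and 28008 CPM in *WT*. The groups overlapped, as the hours moved both, and *inc1* was higher at 9 of the 10 timepoints that they share. The log2 fold change was 0.34 (standard error 0.103, edgeR adjusted p = 0.00888), a 1.27-fold difference. Cell type markers differed between these groups as well, with photoreceptor markers at a median of 1352 to 1844 CPM in *inc1* and 1881 to 2549 CPM in *WT*, and head fat markers at 9324 to 19014 and 7262 to 11017 CPM, and their part in the result was not tested. The other 12 members had log2 fold changes from -0.15 to 0.39 with adjusted p of at least 0.166, and the widest of these was mt:srRNA at 0.39 (standard error 0.215). The median over the 13 was 0.08, against 0.02 over all genes. The call of mt:lrRNA was lost without the libraries that held body-tissue RNA (0.26, adjusted p = 0.0880) and without the 3 shallowest (0.21, adjusted p = 0.0550). In the latter fit mt:ND2, at 0.12 in the main fit, was called instead (-0.49, adjusted p = 0.00997). The call of mt:lrRNA was also lost at light hours alone, on the second sampling day alone and with no filter on low counts.

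For *wakeD2* against *WT*, 0 of 13 members were called (edgeR), against 23.3% of all genes, with 1 member at an unadjusted p under 0.05 and 1 called by DESeq2, mt:lrRNA in both cases. mt:lrRNA ran from 11708 to 32403 CPM in *wakeD2* (median 19014) and was above *WT* at 9 of 10 shared timepoints, with a log2 fold change of 0.25 (standard error 0.103, adjusted p = 0.0748). The remaining 12 spread to both sides, and the list's median was -0.06 against -0.01 over all genes. The adjusted p of mt:lrRNA ranged from 0.0042 on the first sampling day to 1 under the alternatives, and 11 of the 12 *wakeD2* libraries held body-tissue markers, so a fit without such libraries kept only 1 of this genotype.

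In *WT-old*, mt:lrRNA and mt:CoII fell, 2 of 13 members against 28.7% of all genes. mt:lrRNA was at 7760, 12420 and 18641 CPM (lowest, median and highest) in *WT-old* and lay below *WT* at 10 of 10 shared timepoints. Its log2 fold change was -0.45 (standard error 0.103, edgeR adjusted p = 0.00077). mt:CoII was at 1026, 1251 and 1907 CPM in *WT-old* against 1202, 1573 and 2107 CPM in *WT*, lower at 8 of 10 shared timepoints. Its log2 fold change was -0.20 (standard error 0.0671, adjusted p = 0.0195). Both ranges overlapped with those of *WT* because of the hours.

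The 11 other members had log2 fold changes from -0.42 in mt:ND6 to 0.32 in mt:srRNA, 9 of them negative, with adjusted p of at least 0.156, and the median of all 13 was -0.17 against -0.01 over all genes. mt:lrRNA made up 36.2% to 48.0% of mitochondrial counts in *WT-old* libraries (median 42.8%) and 42.8% to 50.9% in *WT* (median 47.3%), while in *inc1* and *wakeD2* the medians were 51.8% and 51.9%. At light hours alone, where the head fat markers of *WT-old* were high in all libraries, the fold changes were -0.49 for mt:lrRNA (adjusted p = 0.0123) and -0.25 for mt:CoII (adjusted p = 0.0329). Scaling by total counts moved the median of all genes by 0.10, and mt:CoII then lost its call (-0.10, adjusted p = 0.248). It lost it too without body-tissue libraries (adjusted p = 0.101) and on the first or second sampling day alone (adjusted p = 0.150 and 0.269), and mt:lrRNA lost its call on the second day alone (-0.47, adjusted p = 0.0859). mt:CoII also lost its call in 4 fits without a single library (*WT* at ZT0 or ZT32, *WT-old* at ZT20 or ZT32), with adjusted p up to 0.0551. Without the 3 shallowest libraries 4 members were called, with mt:CoIII (-0.23) and mt:ND5 (-0.42) in addition.

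**Figure D5:**
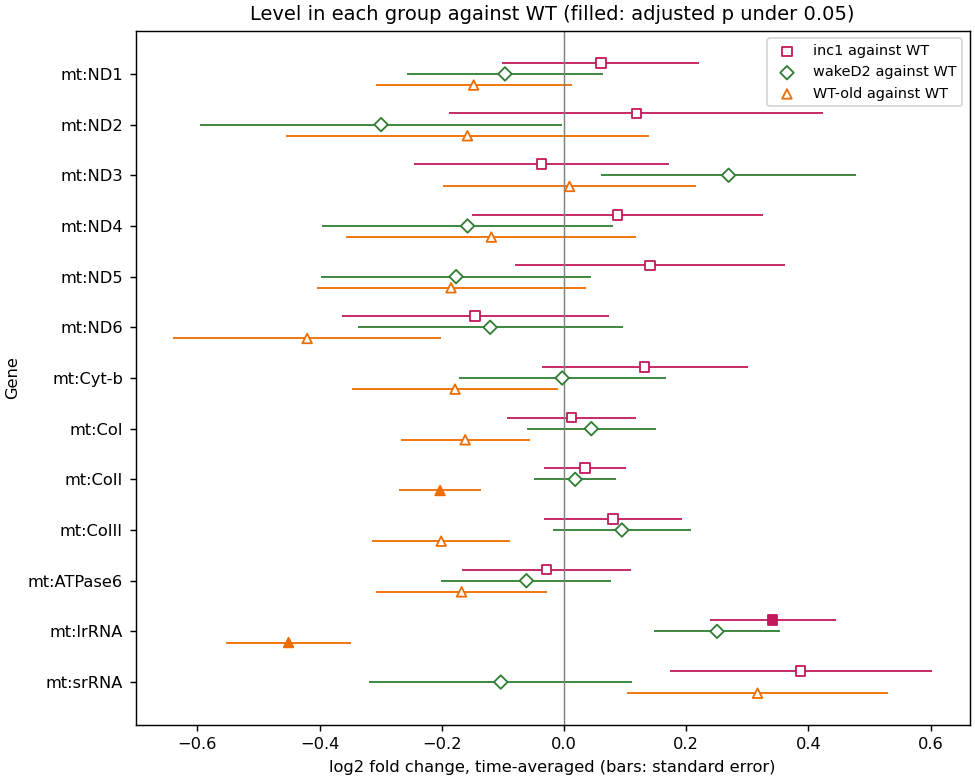
Log2 fold change of each tested member, averaged over time, in *inc1*, *wakeD2* and *WT-old* against *WT*; bars are standard errors and filled symbols have an adjusted p under 0.05. mt:lrRNA is filled at 0.34 in *inc1* and at -0.45 in *WT-old*, and mt:CoII at -0.20 in *WT-old*.

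Between the mutants, 0 of 13 members were called in *wakeD2* against *inc1* (edgeR), against 40.7% of all genes. The nearest was mt:srRNA, the only member at an unadjusted p under 0.05, with a log2 fold change of -0.49 (standard error 0.204, adjusted p = 0.0514). It was at 3.26 to 20.4 CPM (median 5.17) in *wakeD2* and at 3.71 to 31.8 CPM (median 8.44) in *inc1*, lower in the former at 9 of 12 timepoints. DESeq2 called it (-0.49, adjusted p = 0.0334), as did 7 of the 24 edgeR fits that left out a library: *inc1* at ZT16, ZT24, ZT28, ZT32 or ZT40, or *wakeD2* at ZT4 or ZT24. mt:lrRNA differed by -0.09 (adjusted p = 0.485) between the mutants.

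The nuclear partners did not share the size of the hourly swing. Of 67 tested nuclear genes picked by symbol, mostly subunits of the respiratory complexes, fitted hours differed by at least 1 in 3. Of 70 mitochondrial ribosomal proteins they did so in 2, against 9.85% of all genes. The lists' medians of ZT0 and ZT12 over the other hours were 0.14 and 0.10, against 0.80 for the mitochondrial genes. Calls were still common: the hour was called in 64 and 65, against 73.8% of all genes. A 12 h component was called in 36 to 44 of the 67 and 26 to 41 of the 70 by group, against 31.3% to 42.9% of all genes. The hour pair held a median of 42.9% and 32.7% of the variance, against 23.4% over all genes. In level, 8 of the 67 nuclear genes were called in *inc1* (6 higher, 2 lower, median 0.03), 7 in *wakeD2* (all higher, median 0.06) and 6 in *WT-old* (2 higher, 4 lower, median -0.04), where 33.5%, 23.3% and 28.7% of all genes were called. Of the 70 mitochondrial ribosomal proteins, 6 were higher in *inc1*, 3 were higher in *wakeD2*, and 3 were higher and 1 lower in *WT-old*. Both lists thus had a smaller share of calls than all genes in each comparison.

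Factors that make, process, stabilise or replicate mitochondrial nucleic acids were read from a list of 22, of which 19 were tested. Their calls are given as values only, since 5 of 19 in *inc1*, 0 in *wakeD2*, 3 in *WT-old* and 6 between the mutants stand below the 33.5%, 23.3%, 28.7% and 40.7% called over all genes. In *inc1* 2 rose and 3 fell: bsf, which stabilises mitochondrial RNAs, had a log2 fold change of -0.18 (edgeR adjusted p = 2.66e-05), PolrMT of -0.15 (adjusted p = 0.000277) and Lrpprc2, a related RNA-binding protein, of -0.28 (adjusted p = 0.0020). In *WT-old* 2 rose, RNaseZ, which trims the ends of tRNAs, by 0.26 (adjusted p = 0.000617) and mtSSB, the single-strand DNA-binding protein of mitochondria, by 0.24 (adjusted p = 0.00133), and PolrMT fell by 0.11 (adjusted p = 0.0045). In *wakeD2* against *WT* 0 of 19 were called (edgeR), with rswl (adjusted p = 0.0616) and mTTF (adjusted p = 0.0882) at an unadjusted p under 0.05. Between the mutants 5 were higher and 1 lower in *wakeD2*, led by bsf at 0.15 (adjusted p = 0.000165), Lrpprc2 at 0.23 (adjusted p = 0.00527) and PolrMT at 0.10 (adjusted p = 0.00799).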

How the data were processed

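Heads were sequenced in 46 libraries. The authors made stranded mRNA libraries, aligned single reads with STAR 2.4.2a to the Release 6 assembly, counted reads per gene with featureCounts and deposited raw counts without normalization. Strand, multi-mapping and overlap settings are not given in the sources used here. Symbols matched 17288 of 17490 identifiers, and positions come from the Ensembl annotation of BDGP6. Members and lists were chosen with earlier results of these data known, as were the named genes: every protein and rRNA gene, and up to 3 called factors per comparison. Genes under 1 CPM in more than 28 libraries were removed (9969 left). Counts were tested with edgeR 4.0.16 (R 4.3.3; TMM, quasi-likelihood, Benjamini-Hochberg, threshold 0.05) in a model of group and hour, or of a 24 h cosine and sine per group, and the scripts were tested on simulated data. Alternatives were DESeq2 1.42.0, other scaling, filters, covariates, days, hours and left-out libraries. The smallest chi-square per degree of freedom between libraries of a group was 5.94, so none was a copy. Floors cover counting error only. Tables were made with Python 3.11.15.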

Additional observations from a re-analysis of the deposited data

Results flagged for a closer look

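Within *WT*, the only group of 10 libraries or fewer, each of the 15 protein and rRNA genes was examined for a library whose gap to its nearest neighbour is large for the range of the group, which chance gives in about 1 of 20 groups. mt:ND1 at ZT32 was at 1899 CPM, where the next *WT* library was at 1180 CPM. mt:ND6 at ZT16 was at 5.37 CPM, where the next was at 2.69 CPM. mt:ND4L at ZT12 was at 0.537 CPM, which rests on 11 counts.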

How the results depend on the processing

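Of 127 values of the 12 counts of called members, 112 stayed within 1.5 times the reported count and 15 did not, and no fold change of mt:lrRNA or mt:CoII turned its sign. The count in *inc1* went from 1 to 0 with no filter, without body-tissue libraries, on the second sampling day and at light hours, where mt:lrRNA had adjusted p of 0.0751, 0.0880, 0.466 and 0.126. Without the 3 shallowest libraries the count stayed at 1, but with mt:ND2 in place of mt:lrRNA. In *wakeD2* it went from 0 to 1, mt:lrRNA, with the timepoint as a replicate block, on the first sampling day, without the 3 shallowest libraries and in DESeq2, with adjusted p of 0.0484, 0.0042, 0.0245 and 0.0433. In *WT-old* it went from 2 to 1 with total counts, without body-tissue libraries and on the first day, to 0 on the second day (mt:lrRNA adjusted p = 0.0859) and to 4 without the 3 shallowest libraries. For *wakeD2* against *inc1* DESeq2 gave 1. Without the filter the hour was called in 21 members. Of all 37 members, 9 had 0 counts in every library and could not be called. The 21 were not compared with the share of all genes in that fit, and with the filter 73.8% of all genes were called. The replicate block changed no other call, and a shared timepoint is a shared hour, not a shared pool. Leaving out single libraries gave 1 to 1 calls in *inc1*, 0 to 1 in *wakeD2* (1 without ZT32), 1 to 2 in *WT-old* and 0 to 1 between the mutants. The 24 h counts stayed at 0 under every alternative run, but most of these fits held no 12 h terms. The rhythm of *wakeD2* could not be fitted without body-tissue libraries, which left 1 library. The causes were not tested. Depth limits the scarce members most: mt:ND6 rests on 2 to 144 counts per library. Fits without the 3 shallowest libraries or *inc1* at ZT8 were chosen after seeing the data.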
